A study of Mus musculus with 12 samples.

Results

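Metallothioneins and the genes that set cellular zinc were followed in RNA-seq of mouse bone marrow-derived dendritic cells (BMDCs). The members were chosen by symbol and are Mt1, Mt2, Mtf1, Slc30a1 and Slc39a14, 5 of the 55335 genes listed, and all 5 were among the 14357 genes that passed the filter on low counts. BMDCs were grown from bone marrow of CreER mice on the C57BL/6 background with murine GM-CSF for 6 days, with the medium changed every 2 days. Per the study's methods the mice were young adults of both sexes, and CD11c+ cells were selected with beads. All groups carried the Rosa26 CreER transgene with intact Ctcf, and the labels do not say whether these cultures received 4-OH-tamoxifen. The 4 groups held 3 libraries each. WT cells were untreated, and WTL cells received 100 ng/ml lipopolysaccharide (LPS) for 3 h. WT + JSH23 and WTL + JSH23 cells also received 100 µM JSH-23 for 3 h, a small molecule described as keeping the NF-κB subunit RelA out of the nucleus. The study describes this as a pre-treatment, given before LPS in WTL + JSH23. Its text does not say whether JSH-23 was still there during LPS. WT and WTL replicates are numbered 4 to 6 and those of the JSH-23 groups 1 to 3, and the labels give no solvent for WT and WTL, so a difference between culture sets and an effect of JSH-23 cannot be told apart.

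Zinc is held at very low free levels inside cells. Metallothioneins are small, cysteine-rich proteins that bind zinc and copper. MTF-1, encoded by Mtf1, senses free zinc and binds metal response elements in front of Mt1, Mt2 and Slc30a1. Slc30a1 encodes ZnT1, the exporter of the plasma membrane, and Slc39a14 encodes ZIP14, an importer of zinc, iron and manganese that is known for its induction in inflammation. In dendritic cells, the level of free zinc is known to bear on maturation after LPS.

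The 2 metallothionein genes lie side by side on chromosome 8 (build GRCm38, GENCODE release M21). Mt2 (ENSMUSG00000031762.7) occupies chr8:94172664-94173568 and Mt1 (ENSMUSG00000031765.8) chr8:94179082-94180327, both on the plus strand, and Mt1 starts 5514 bases after Mt2 ends. Slc30a1 (ENSMUSG00000037434.7) occupies chr1:191906767-191913247 on the plus strand, Mtf1 (ENSMUSG00000028890.13) chr4:124802104-124849800 on the plus strand, and Slc39a14 (ENSMUSG00000022094.15) chr14:70303469-70351425 on the minus strand. The sequence just upstream of the annotated starts of Mt2, Mt1 and Slc30a1 is shown because these are the members described as direct MTF-1 targets. It comes from the promoter table of RefSeq on GRCm38.p6, which held 4 of the 5 members and not Slc39a14. The printed stretches end before the first transcript start of RefSeq or GENCODE, on the plus strand, and capitals mark the core of the metal response element (TGCACNC or TGCGCNC, either strand). They span chr8:94172368-94172617 for Mt2, chr8:94178839-94179081 for Mt1 and chr1:191906531-191906766 for Slc30a1.
Mt2: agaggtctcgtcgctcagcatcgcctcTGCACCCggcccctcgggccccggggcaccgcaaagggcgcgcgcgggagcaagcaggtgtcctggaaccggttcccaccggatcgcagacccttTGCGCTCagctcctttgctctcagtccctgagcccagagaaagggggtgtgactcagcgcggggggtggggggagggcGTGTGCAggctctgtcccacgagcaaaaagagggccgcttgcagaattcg
Mt1: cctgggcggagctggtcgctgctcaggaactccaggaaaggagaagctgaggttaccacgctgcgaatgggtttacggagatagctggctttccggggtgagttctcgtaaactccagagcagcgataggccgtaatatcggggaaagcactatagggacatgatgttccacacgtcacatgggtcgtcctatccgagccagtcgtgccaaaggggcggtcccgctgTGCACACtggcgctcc
Slc30a1: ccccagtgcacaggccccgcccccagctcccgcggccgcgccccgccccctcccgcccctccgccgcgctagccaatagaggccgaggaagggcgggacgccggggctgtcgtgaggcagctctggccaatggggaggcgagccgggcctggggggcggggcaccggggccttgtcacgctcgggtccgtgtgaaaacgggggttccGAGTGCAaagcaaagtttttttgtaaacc
In the 250 bases before the RefSeq start the core was found 3 times for Mt2, once for Mt1, once for Slc30a1 and not for Mtf1. Of all 32851 promoter windows of that length, 21.4% held at least 1 core and 1.26% held 3 or more.

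GENCODE lists other Mt1 transcripts that start at 94179211 and 94179241, beyond this window. The first 180 bases of the outermost coding transcript were therefore searched too, and they held the core 4 times for Mt1, 3 times for Mt2, once for Slc30a1 and not for Mtf1 or Slc39a14. Of 21788 coding genes, 19.4% had at least 1 core in their first 180 bases, 0.67% had 3 or more and 0.078% had 4 or more. The 4 cores of Mt1 began at bases 10, 28, 92 and 106 of its transcript, the one at 92 on the minus strand, and the 3 of Mt2 at bases 13, 32 and 66, those at 13 and 32 on the minus strand. The antioxidant response element (TGACNNNGC) matched once upstream of Mt2, once upstream of Slc30a1 and once in the first 180 bases of Mt1, and it was held by 10.2% of promoter windows and 8.3% of first 180 bases. The NF-κB-like motif GGGNNTTNC matched once upstream of Slc30a1 against 13.0% of windows. The STAT motif TTCNNNGAA was found in none of these stretches and is held by 7.02% of windows. The glucocorticoid receptor motif AGAACA was found for Mtf1 alone, once in each stretch, and was held by 16.1% of windows and 10.5% of first 180 bases. No match overlapped a match of another motif. These are matches of letters, and binding was not measured.

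The coding sequences of Mt1 and Mt2 are shown because reads of such similar genes could be confused. Both had 186 bases with the stop codon, taken from the GENCODE transcripts Mt1-201 and Mt2-201, and capitals mark the bases that differ.
Mt1: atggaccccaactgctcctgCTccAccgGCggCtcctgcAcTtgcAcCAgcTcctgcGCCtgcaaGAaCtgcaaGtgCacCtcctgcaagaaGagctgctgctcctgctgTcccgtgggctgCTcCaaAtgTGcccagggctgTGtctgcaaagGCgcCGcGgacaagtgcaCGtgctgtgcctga
Mt2: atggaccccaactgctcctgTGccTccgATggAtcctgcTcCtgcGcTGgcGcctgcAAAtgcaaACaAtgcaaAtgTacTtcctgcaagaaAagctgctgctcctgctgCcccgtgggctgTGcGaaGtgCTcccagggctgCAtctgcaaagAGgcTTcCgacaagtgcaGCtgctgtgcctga
They differed at 38 bases and were 79.6% identical, and the longest stretch without a difference was 20 bases. The expected count of Mt1, the number of read pairs that the estimation gave it, was whole in all 12 libraries, as it is where no read pair is shared between genes. Fractional counts occurred for Mt2 in 4 libraries, for Mtf1 and Slc30a1 in 12 and for Slc39a14 in 0. Mt2 overlaps the antisense gene Gm45774, Slc30a1 overlaps the antisense gene 1700034H15Rik, and Mtf1 overlaps 1110065P20Rik, a coding gene of the other strand, and the rRNA gene n-R5s192. Whether strand was used in counting is not given in the sources used here, so reads of a gene and its antisense partner cannot be told apart.

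Total expected counts per library ran from 24664724 to 34837847. The 8 dendritic cell markers were detected in each group, with summed TPM between 21500 and 24500. In WT most of this sum came from Cd74 (14120 TPM), H2-Aa (4645 TPM) and H2-Ab1 (3590 TPM), while Zbtb46 had 23.5 TPM and Flt3 2.94 TPM. The sums of different lists therefore do not give shares of cells. The sum of 6 macrophage markers ran from 1150 to 1200 TPM in WT, from 979 to 1020 in WT + JSH23, from 685 to 745 in WTL and from 740 to 756 in WTL + JSH23. That of 8 neutrophil markers ran from 195 to 218 TPM in WT, from 188 to 210 in WT + JSH23, from 217 to 226 in WTL and from 171 to 190 in WTL + JSH23. Lists for B cells, T cells, NK cells, mast cells and erythroid cells stayed at or below 2.65 TPM. In bulk RNA, fewer cells of a type and less RNA per cell cannot be told apart. Levels are compared between groups in CPM, which divide counts by a library size corrected for composition with the TMM method of edgeR, and between genes in TPM, which corrects for length. Changes are log2 fold changes from the quasi-likelihood test of edgeR, with p adjusted by Benjamini-Hochberg over all 14357 genes, and a gene passed at an adjusted p under 0.05. The 4 comparisons share groups with each other, so their values are not independent. The replicates are called biological but are not tied to separate mice, so p values measure the spread between these libraries. Where libraries are said not to overlap, this is a description, since how often it held over all genes was not counted in any comparison.

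Per length, the metallothioneins were by far the most abundant members. In WT, Mt1 had 536.7 ± 9.15 TPM (SD, n = 3 here and throughout) and Mt2 434.4 ± 9.37 TPM, which placed them at ranks 284 and 348 of the 14357 genes by TPM. Slc30a1 followed with 28.4 ± 1.42 TPM, Mtf1 with 19.9 ± 2.17 TPM and Slc39a14 with 10.7 ± 1.17 TPM. With LPS the order changed on the TPM scale. In WTL, Mt2 came first with 583.6 ± 36.1 TPM, before Mt1 with 482.4 ± 23.8 TPM, and Slc39a14 followed with 71.6 ± 2.08 TPM. Mtf1 had 26.04 ± 2.30 TPM there, and Slc30a1 was last with 7.35 ± 0.521 TPM. In WT + JSH23 the order was Mt1 (699.8 ± 7.98 TPM), Mt2 (574.8 ± 2.43 TPM) and Slc30a1 (38.4 ± 1.80 TPM), followed by Slc39a14 (19.6 ± 3.51 TPM) and Mtf1 (18.8 ± 0.604 TPM), which did not differ beyond their spread. In WTL + JSH23 it was Mt2 (707.8 ± 22.4 TPM), Mt1 (585.8 ± 39.6 TPM), Slc39a14 (75.5 ± 7.02 TPM), Mtf1 (25.4 ± 0.319 TPM) and Slc30a1 (17.6 ± 1.51 TPM). By rank among all genes tested, Slc39a14 moved from 7183 in WT to 1819 in WTL and Slc30a1 from 4157 to 7354. The effective length of Slc39a14 varied between 3090.3 and 4265.9 bases among libraries, which enters its TPM and not its CPM.

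**Figure D1:**
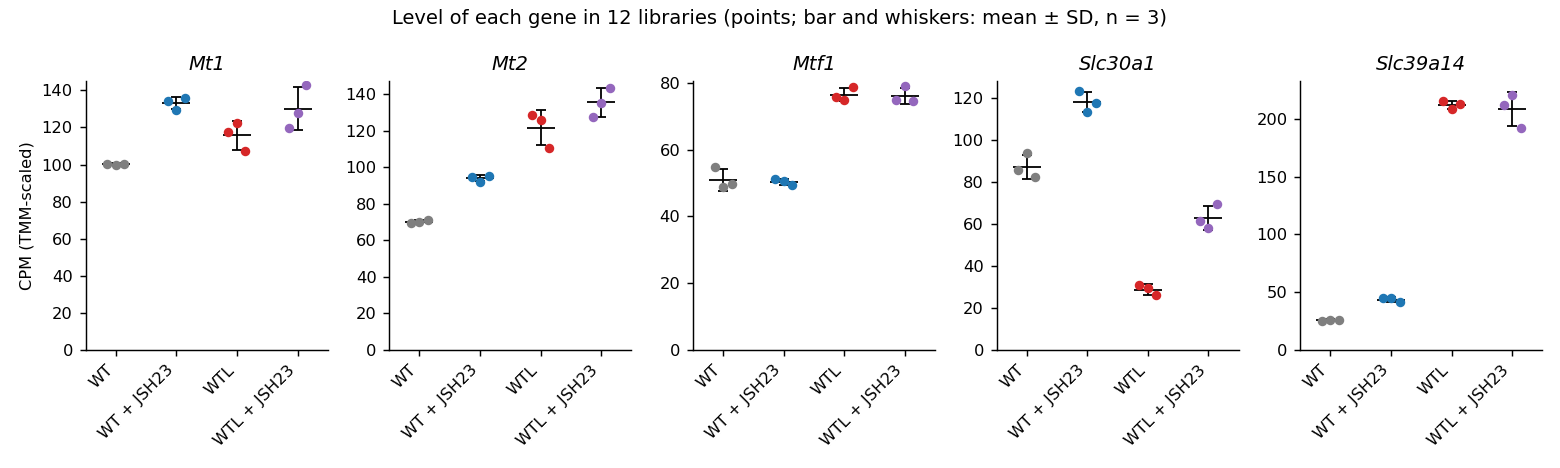
Level of Mt1, Mt2, Mtf1, Slc30a1 and Slc39a14 in CPM (y axis, from 0, scaled by TMM) in the 4 groups (x axis), 1 point per library, with the mean as a bar and the SD as whiskers (n = 3). The Slc30a1 points of the 4 groups do not overlap, with WTL lowest at 25.87 to 30.8 CPM, and the Slc39a14 points with LPS all lie at or above 192.5 CPM against at most 44.74 CPM without it. On the TPM scale, unlike here, Mt1 was lower in WTL than in WT.

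LPS without JSH-23, the comparison of WTL with WT, moved all 5 members past the test. Of these, 4 were higher, where 31.0% of all genes tested were called higher, and 1 was lower, where 34.7% were called lower. A change over 2-fold was reached by Slc39a14 and Slc30a1, and by 16.4% of all genes. The median log2 change of the 5 was 0.58, and that of all genes was -0.05. The importer rose and the exporter fell, Mt2 and Mtf1 rose by less than 2-fold, and the small rise of Mt1 turned into a fall on the TPM scale.

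Slc39a14, the importer ZIP14, had 24.77, 26.23 and 25.6 CPM in WT and 215.5, 208.5 and 213.0 CPM in WTL. The groups lay far apart and each varied little. The change was 8.31-fold (log2 3.06, SE 0.0527, adjusted p 2.97e-21 in edgeR). Slc30a1, the exporter ZnT1, had 85.44, 93.41 and 82.17 CPM in WT and 30.8, 29.23 and 25.87 CPM in WTL. Every WTL library lay below every WT library, and the level was 3.03-fold lower (log2 -1.60, SE 0.0686, adjusted p 1.15e-14 in edgeR).

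Mtf1, which encodes the zinc sensor, had 54.8, 48.71 and 49.57 CPM in WT and 75.7, 74.99 and 78.64 CPM in WTL. These libraries did not overlap, and Mtf1 rose 1.497-fold (log2 0.58, SE 0.0475, adjusted p 6.27e-10 in edgeR). Mt2 had 69.66, 69.74 and 71.3 CPM in WT and 128.5, 125.7 and 110.8 CPM in WTL. It rose 1.74-fold without overlap (log2 0.79, SE 0.0517, adjusted p 1.43e-11 in edgeR).

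Mt1 had 100.5, 99.92 and 100.5 CPM in WT and 117.4, 122.5 and 107.2 CPM in WTL. The libraries did not overlap, and the fitted change was 1.16-fold (log2 0.21, SE 0.0546, adjusted p 0.0022 in edgeR), but on the log2(TPM + 1) scale in limma it was -0.15 (adjusted p 0.0105). That scale moved the median of all genes to -0.26, against -0.05 with TMM, and Mt1 stood 0.11 above the median on it and 0.25 above it with TMM. Upper quartile scaling (0.13, adjusted p 0.0402) and DESeq2 size factors (0.24, adjusted p 0.000541) in edgeR kept the rise. The other 4 members kept their direction in this comparison under these settings. Of the macrophage markers 2 of 6 were higher and 4 lower with LPS, and of the neutrophil markers 4 of 6 tested were higher (1 of 6 on the TPM scale). The part of such cells in the changes of the members was not tested.

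**Figure D2:**
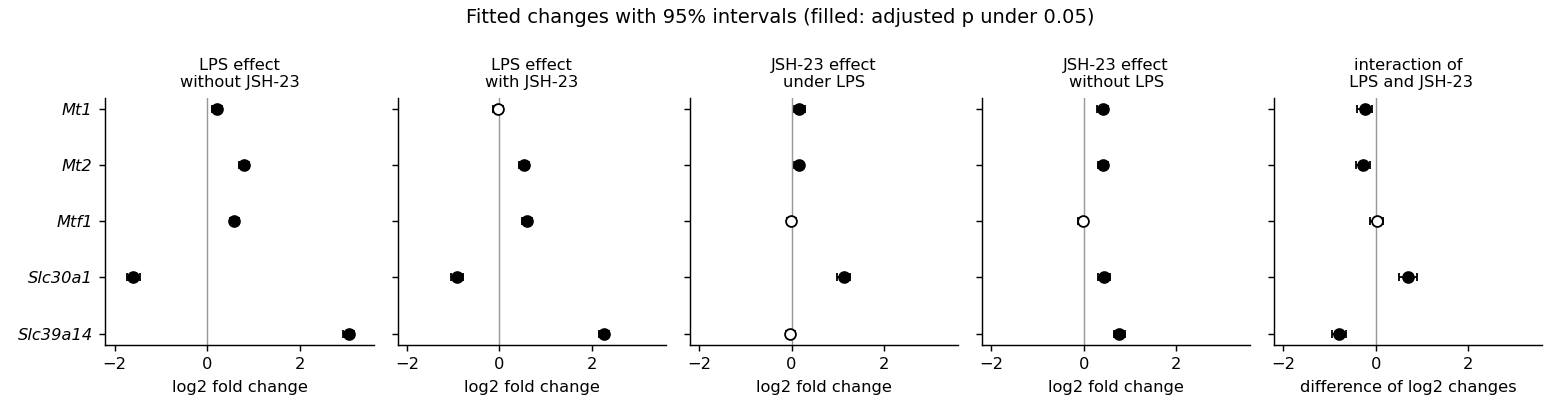
Fitted log2 change of each member (y axis) in the 4 comparisons and the interaction (panels, with the log2 change on the x axis and the same limits in each), with 95% intervals as bars and filled points where the adjusted p was under 0.05. Slc39a14 has the largest LPS change (3.06 and 2.26), Slc30a1 the largest JSH-23 change under LPS (1.13), and Mtf1 lies near 0 in both JSH-23 comparisons. The Mt1 rise with LPS (0.21) was -0.15 on the TPM scale.

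Because both metallothioneins were measured in the same libraries, their ratio does not depend on the scaling. This ratio and the next were chosen after the values had been seen, which their p values do not account for. The ratio of expected counts of Mt1 to that of Mt2 was 1.443, 1.433 and 1.41 in the WT libraries, and with JSH-23 alone it was 1.421, 1.404 and 1.422. With LPS it was 0.9138, 0.9745 and 0.9676 in WTL, and 0.9395, 0.9439 and 0.9955 in WTL + JSH23. All 6 libraries without LPS lay above 1 and all 6 with LPS below it. The ratio differed by -0.57 on the log2 scale with LPS (two-sided exact permutation test within each JSH-23 state, p = 0.005, the smallest that the 400 arrangements can give, adjusted p = 0.01 over 4 ratio tests). With JSH-23 it differed by -0.00083 (p = 0.985 in the same exact test). Mt1 was thus 58.4% to 59.07% of the 2 genes' counts without LPS and 47.75% to 49.89% with it.

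The ratio of Slc39a14 to Slc30a1 was likewise read within libraries. It was 0.2808 to 0.3115 in WT, rising to 7.001 to 8.234 in WTL. With JSH-23 it ran from 0.3511 to 0.3934 before LPS and from 2.782 to 3.81 after it. LPS raised it by 3.92 on the log2 scale. Slc39a14 rose and Slc30a1 fell with LPS without overlap in both JSH-23 states. The exact permutation test could therefore only give its smallest value (p = 0.005, adjusted p = 0.01), which adds nothing to the changes of the 2 genes. The JSH-23 difference was 0.33 without LPS and -1.16 with it, and the libraries did not overlap in either state. These opposite differences partly cancel in the mean over both, -0.42, which did not pass (exact permutation test, p = 0.11, adjusted p = 0.147). That test therefore cannot show whether the ratio differed with JSH-23 within an LPS state.

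**Figure D3:**
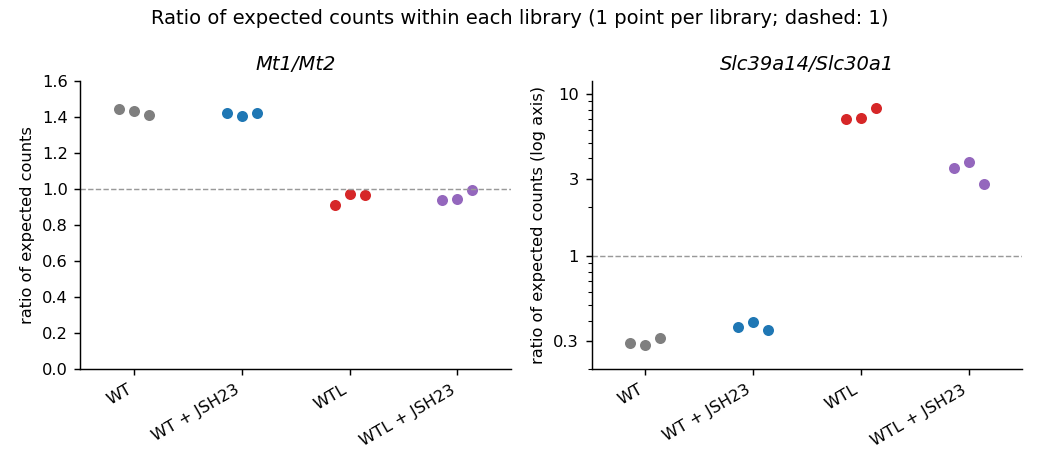
Ratio of expected counts within each library for Mt1 to Mt2 (left, linear y axis from 0) and Slc39a14 to Slc30a1 (right, log y axis), 1 point per library in each of the 4 groups (x axis), with a dashed line at 1. Both ratios cross 1 with LPS, Mt1 to Mt2 from at least 1.404 down to at most 0.9955 and Slc39a14 to Slc30a1 from at most 0.3934 up to at least 2.782.

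In cells pre-treated with JSH-23, LPS (WTL + JSH23 against WT + JSH23) raised 3 members, where 27.4% of all genes were called higher, and lowered 1, where 27.1% were called lower. Slc39a14 alone exceeded 2-fold, as 10.3% of all genes did. The median log2 change of the 5 was 0.53 against -0.02 over all genes. Slc39a14 had 44.74, 44.53 and 41.18 CPM in WT + JSH23 and 212.3, 220.7 and 192.5 CPM in WTL + JSH23, a 4.80-fold rise (log2 2.26, adjusted p 3.36e-19 in edgeR). Its level with LPS and JSH-23 overlapped that of WTL, while its level before LPS was higher with JSH-23.

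Slc30a1 had 123.0, 113.2 and 117.3 CPM in WT + JSH23 and 61.13, 57.93 and 69.22 CPM in WTL + JSH23, which was 1.88-fold lower without overlap (log2 -0.91, adjusted p 6.53e-11 in edgeR). Mtf1 had 51.23, 50.46 and 49.25 CPM before and 74.77, 78.98 and 74.58 CPM after LPS, a 1.51-fold rise (log2 0.60, adjusted p 7.6e-10 in edgeR). Mt2 had 94.65, 92.14 and 95.43 CPM before and 127.6, 135.4 and 143.5 CPM after LPS, a 1.44-fold rise (log2 0.53, adjusted p 1.52e-08 in edgeR). Both kept their LPS libraries apart from the others.

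Mt1 had 134.5, 129.3 and 135.7 CPM in WT + JSH23 and 119.9, 127.8 and 142.9 CPM in WTL + JSH23. The groups overlapped, and the change did not pass (log2 -0.03, 95% interval -0.15 to 0.08, adjusted p 0.615 in edgeR). It passed as -0.26 on the log2(TPM + 1) scale in limma (adjusted p 0.00053). That scale moved the median of all genes to -0.16 in this comparison, and relative to the median Mt1 had -0.0955 on it and -0.0163 with TMM. The summed counts of Mt1 and Mt2, which include the rise of Mt2, changed by 0.22 (adjusted p 0.00071 in edgeR). Of the macrophage markers 2 of 6 were higher and 3 lower in this comparison (1 higher and 4 lower on the TPM scale), and of the dendritic cell markers 7 of 8 were higher and 0 lower (2 higher and 2 lower on the TPM scale). None of the 6 neutrophil markers tested passed, with a median of 0.10. The part of these markers in the changes was not tested.

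JSH-23 under LPS, the comparison of WTL + JSH23 with WTL, raised 3 members and lowered 0, where 24.5% of all genes were called higher and 24.2% lower. Slc30a1 alone exceeded 2-fold, as 7.0% of all genes did, and the median of the 5 was 0.15 against 0.02 over all genes. The level of Slc30a1 went from between 25.87 and 30.8 CPM to between 57.93 and 69.22 CPM, a 2.18-fold rise (log2 1.13, SE 0.0707, adjusted p 2.16e-11 in edgeR), and remained below the 82.17 to 93.41 CPM of WT. Mt1 (log2 0.17, adjusted p 0.0151) and Mt2 (log2 0.15, adjusted p 0.0159) were higher by about the spread of their libraries, which overlapped for both genes. Without WTL replicate 6 neither passed (adjusted p 0.103 for Mt1 and 0.126 for Mt2), nor did either without WTL + JSH23 replicate 3 (adjusted p 0.109 and 0.0759), so that 1 member was left past the threshold in place of 3.

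Slc39a14 did not pass under LPS (log2 -0.03, 95% interval -0.12 to 0.07, adjusted p 0.678 in edgeR), and neither did Mtf1 (log2 -0.01, 95% interval -0.10 to 0.09, adjusted p 0.939). The libraries of both genes overlapped between the groups. Of the neutrophil markers, 6 of 6 tested were lower in this comparison (3 of 6 on the TPM scale), with a median log2 change of -0.45 against 0.02 over all genes, of the macrophage markers 4 of 6 were lower and 1 higher on both scales, and of the dendritic cell markers 6 of 8 were lower and 1 higher (2 lower and 1 higher on the TPM scale). Ly6g and Elane, defining neutrophil markers, were below the filter, and the part of such cells in the members' changes was not tested.

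JSH-23 without LPS, the comparison of WT + JSH23 with WT, raised 4 members and lowered 0, where 18.8% of all genes were called higher and 22.1% lower. None exceeded 2-fold, as 5.37% of all genes did, and the median of the 5 was 0.42 against -0.01 over all genes. Slc39a14 rose 1.70-fold (log2 0.77, SE 0.0556, adjusted p 2.59e-10 in edgeR), from between 24.77 and 26.23 CPM to between 41.18 and 44.74 CPM. Slc30a1 rose 1.35-fold (log2 0.44, SE 0.0606, adjusted p 4.37e-06), Mt2 1.34-fold (log2 0.42, SE 0.0518, adjusted p 8.45e-07) and Mt1 1.33-fold (log2 0.41, SE 0.0539, adjusted p 2.27e-06). For each of these genes every WT + JSH23 library lay above every WT library, and how often this held over all genes was not counted. Importer, exporter and both metallothioneins thus stood higher with JSH-23 alone, while Mtf1 did not pass (log2 -0.02, 95% interval -0.12 to 0.08, adjusted p 0.779). The macrophage markers moved in this comparison as well, with 4 of 6 lower and 1 higher, and their part in it was not tested.

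The interaction subtracts the log2 LPS change of untreated cells from that of JSH-23-treated cells, and it passed for 4 members. It was higher for 1, where 9.54% of all genes were called higher, and lower for 3, where 8.44% were called lower, with a median of -0.24 against 0.03 over all genes. For Slc30a1 it was 0.69 (SE 0.0932, adjusted p 2.65e-05 in edgeR), so the fall with LPS was smaller with JSH-23. For Slc39a14 it was -0.79 (SE 0.0718, adjusted p 2.44e-07), whose levels under LPS overlapped while its level before LPS was higher with JSH-23. Mt2 (-0.27, adjusted p 0.0127) and Mt1 (-0.24, adjusted p 0.0327) had smaller values, which did not pass on the log2(TPM + 1) scale (adjusted p 0.188 and 0.33 in limma). That scale moved the interaction median of all genes to 0.11. The Mt1 interaction passed in 3 of 12 fits that left out 1 library, with a highest adjusted p of 0.116. Mtf1 did not pass (0.01, 95% interval -0.13 to 0.16, adjusted p 0.916). Of the neutrophil markers 3 of 6 tested were lower for the interaction (0 on the TPM scale) and none higher, with a median of -0.32 against 0.03 over all genes. Of the macrophage markers 1 of 6 was higher and 1 lower, and of the dendritic cell markers 1 of 8 was higher and 1 lower. The part of such cells in the values of the members was not tested.

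Among the 4 metallothionein genes, Mt4 was listed at 0 in all 12 libraries and Mt3 was low. Mt3, first described in brain, had between 0.3105 and 0.5406 CPM in WT and 0.2666 and 0.3683 CPM in WTL. With JSH-23 it had between 1.664 and 2.458 CPM without LPS and 0.6764 and 1.599 CPM with LPS. These levels rest on 8 to 80 expected counts per library. Mt3 was 4.96-fold higher with JSH-23 without LPS (log2 2.31, adjusted p 2.29e-06 in edgeR) and 3.88-fold higher under LPS (log2 1.96, adjusted p 0.000135), without overlap in either. All 3 metallothioneins tested were called higher with JSH-23 in both LPS states, where 24.5% of all genes were called higher under LPS and 18.8% without it. Under LPS the Mt1 and Mt2 libraries overlapped, and each gene passed in 10 of 12 fits that left out 1 library. With LPS, Mt3 changed by -0.37 without JSH-23 (adjusted p 0.465) and by -0.72 with it (adjusted p 0.0268), and the latter did not pass in DESeq2 (adjusted p 0.0562).

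The zinc exporters of the Slc30 family had 7 of 10 genes tested, with Slc30a3, Slc30a8 and Slc30a10 below the filter. LPS raised 4 and lowered 2 of the 7, both without and with JSH-23, with a median of 0.12 and 0.11 on the log2 scale against -0.05 and -0.02 over all genes. Of all genes, 31.0% were called higher and 34.7% lower without JSH-23, and 27.4% and 27.1% with it. On the TPM scale 1 was higher and 3 lower without JSH-23, and 2 were higher and 2 lower with it. That scale called 1911 of all 14357 genes higher and 7802 lower without JSH-23, and 1977 and 5947 with it. Slc30a1 without JSH-23 was the only change over 2-fold. With JSH-23, Slc30a6 (0.82, adjusted p 4.09e-08), which encodes a transporter of the Golgi, and Slc30a4 (0.46, adjusted p 4.18e-08), which encodes a vesicular one, rose with LPS while Slc30a1 fell. JSH-23 raised Slc30a1 and lowered Slc30a7, another Golgi transporter, in both LPS states (Slc30a7 -0.27, adjusted p 0.000107 under LPS, and -0.24, adjusted p 0.000292 without it), and the Slc30a7 falls did not pass on the TPM scale. The other 5 did not pass, among them Slc30a6 without LPS (-0.09, adjusted p 0.434). Of the 7, only Slc30a1 passed for the interaction, where Slc30a2 had -0.35 (adjusted p 0.733) and Slc30a5 0.11 (adjusted p 0.399).

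The importers of the Slc39 family had 12 of 14 genes tested, with Slc39a5 and Slc39a12 below the filter. Importer, like exporter above, names the family, and transport into or out of cells was not measured. LPS without JSH-23 raised 4 and lowered 6 of the 12, where 31.0% of all genes were called higher and 34.7% lower. The median was -0.21 on the log2 scale against -0.05 over all genes. The TPM scale gave 1 higher and 7 lower, where it called 1911 of all 14357 genes higher and 7802 lower. The changes over 2-fold were the rise of Slc39a14 and the fall of Slc39a10 (-1.12, SE 0.0928, adjusted p 8.1e-10), an importer that MTF-1 is described as repressing. With JSH-23, LPS raised 3 and lowered 3, where 27.4% of all genes were called higher and 27.1% lower. On the TPM scale 2 were higher and 6 lower, where 1977 of all genes were called higher and 5947 lower. JSH-23 raised 6 and lowered 2 under LPS, and raised 5 and lowered 2 without LPS, with medians of 0.27 and 0.20 against 0.02 and -0.01 over all genes. Over all genes, 24.5% were called higher and 24.2% lower under LPS, and 18.8% and 22.1% without it. The 2 importers that fell were Slc39a1 (-0.36 and -0.39) and Slc39a13 (-0.60 and -0.73) in both. Slc39a4, the importer known from the gut, rose from 24.4 ± 2.01 to 53.2 ± 3.41 CPM with JSH-23 under LPS (log2 1.13, SE 0.061, adjusted p 1.93e-12) and from 29.7 ± 0.850 to 54.7 ± 2.38 CPM without LPS (0.88, adjusted p 4.78e-11). Slc39a6, which encodes ZIP6, rose by 0.84 without LPS (adjusted p 4.06e-09). For the interaction 3 importers passed higher and 1, Slc39a14, lower, where 9.54% of all genes were called higher and 8.44% lower. The 3 importers that passed higher were Slc39a4 (0.25, adjusted p 0.0453), Slc39a9 (0.23, adjusted p 0.0378) and Slc39a10 (0.39, adjusted p 0.0401). None of these 3 passed in DESeq2 (adjusted p 0.0744, 0.0794 and 0.0738), in edgeR with DESeq2 size factors (0.0698, 0.0615 and 0.0549) or on the log2(TPM + 1) scale in limma (0.11, 0.463 and 0.248), where another 3 importers passed higher. Slc39a2 had 0.44 (adjusted p 0.505).

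**Figure D4:**
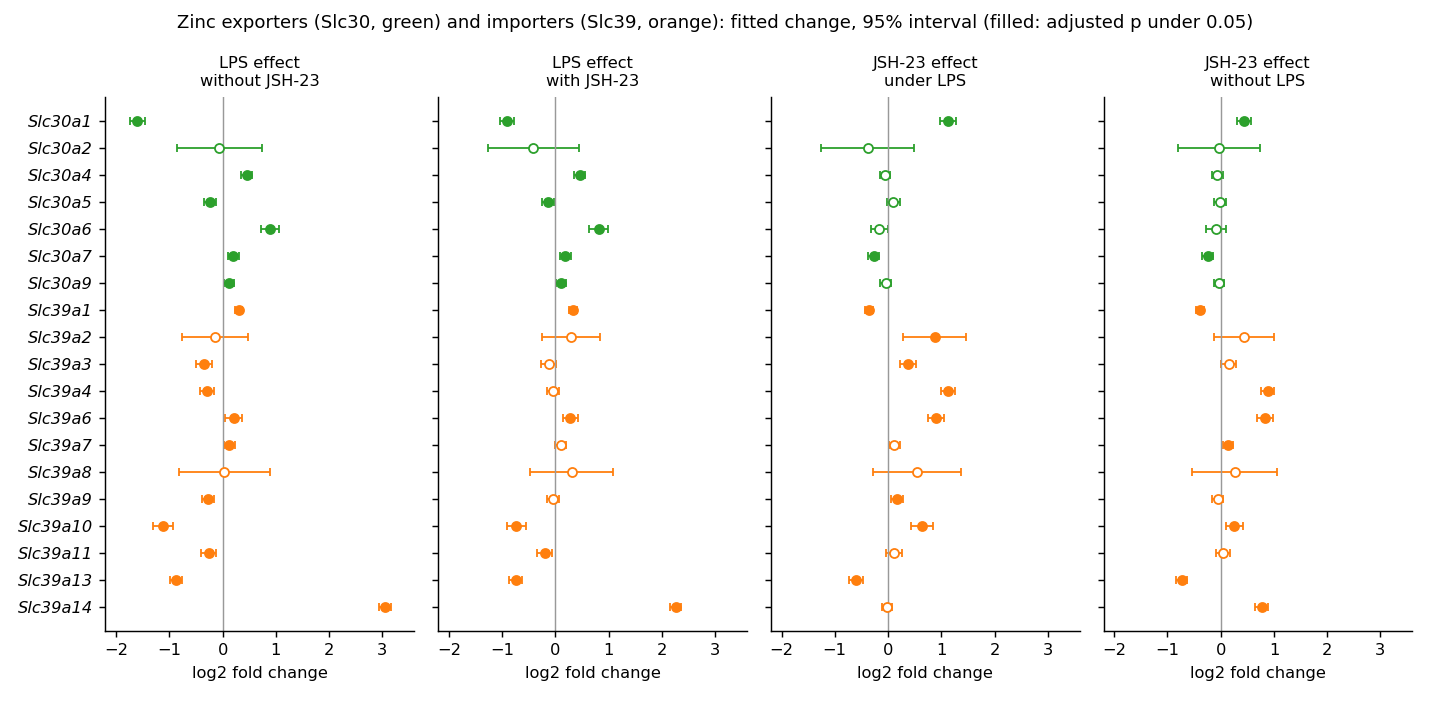
Fitted log2 change (x axis) of the 7 exporters (Slc30, green) and 12 importers (Slc39, orange) tested (y axis) in the 4 comparisons, with 95% intervals as bars and filled points where the adjusted p was under 0.05. Slc39a14 stands to the right of the others with LPS (3.06 and 2.26) and near 0 for JSH-23 under LPS, and Slc30a1 lies furthest to the left with LPS (-1.60 and -0.91) and at 1.13 for JSH-23 under LPS. The small rises with LPS of Slc30a7 and Slc30a9 (both JSH-23 states) and of Slc39a1, Slc39a6 and Slc39a7 (without JSH-23) change sign on the TPM scale.

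A list of 9 genes described as MTF-1 targets holds Mt1, Mt2 and Slc30a1, and Slc39a10 as one that is repressed. LPS without JSH-23 raised 6 and lowered 3 of them, where 31.0% of all genes were called higher and 34.7% lower. On the TPM scale 3 were higher and 5 lower, where 1911 of all 14357 genes were called higher and 7802 lower. Besides Slc30a1 and Slc39a10, the change over 2-fold was that of Ndrg1 (1.44, adjusted p 4.29e-16), a gene known for its response to hypoxia. With JSH-23, LPS raised 4 and lowered 3, where 27.4% of all genes were called higher and 27.1% lower. Pgf, which encodes placental growth factor, changed over 2-fold (1.79, adjusted p 2.43e-05) at no more than 3.673 CPM. JSH-23 raised 5 and lowered 3 under LPS, where 24.5% of all genes were called higher and 24.2% lower. Without LPS it raised 5 and lowered 1, where 18.8% were called higher and 22.1% lower. Gclc, which encodes the catalytic subunit of the enzyme that starts glutathione synthesis, rose by 1.96 (adjusted p 1.62e-13) and 1.77 (adjusted p 5.35e-13) in these comparisons, and Pgf fell by 1.02 on the log2 scale without LPS (adjusted p 0.0102). For the interaction 2 passed higher and 4 lower, where 9.54% of all genes were called higher and 8.44% lower. Slc30a1 had 0.69, Csrp1 -0.51 (adjusted p 2.48e-06) and Pgf 0.94 (adjusted p 0.108). In DESeq2 1 gene of the list was higher and 5 lower, and on the TPM scale 1 was higher and 2 lower, where Mt1, Mt2 and Slc39a10 did not pass. Of all genes, 1000 were called higher and 1440 lower in DESeq2, and 1400 and 362 on the TPM scale. The list thus did not move as one, and its medians in the order above were 0.21, -0.0024, 0.15, 0.26 and -0.18.

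The genes whose pattern over the 12 libraries was most like that of each member were taken from 7698 protein-coding genes with a mean of at least 10 CPM, by Pearson's r of log2 CPM, as a description over libraries that fall into 4 groups. Mt2 was closest to Zfand3 (r 0.995), Mmp13 (0.993) and Adss (0.992). Mt1 was closest to Rps15a (0.96), Rragc (0.953) and Cstb (0.95), so neither metallothionein was among the 3 nearest of the other, and r between Mt1 and Mt2 was 0.651. Slc30a1 was closest to Ypel2 (0.996), Rfxank (0.994) and Rnf217 (0.992). Slc39a14 was closest to Usp53 (0.999), Eci2 (0.997) and Slc7a2 (0.997), the last an amino acid transporter whose LPS change was 2.89 on the log2 scale. Mtf1 was closest to Rap2b, Vsig10 and Cst7 (0.99 each). Among the members, r was highest between Mtf1 and Slc39a14 (0.964) and lowest between Mtf1 and Slc30a1 (-0.827).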

How the data were processed

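RNA of 12 BMDC libraries was sequenced as paired ends. The labels describe rRNA depletion and the study's methods a strand-specific poly(A) kit, and which was used is not settled here. The authors trimmed reads with Trim Galore, aligned them to mm10 with STAR (2.6.0c per the labels, while the reporting summary of the study gives another version) and deposited expected counts per gene from RSEM over a GENCODE annotation whose release is not given in the sources used here. The authors also deposited TPM, which RSEM derives from those counts and effective lengths. Of 55335 gene IDs, 55154 matched GENCODE M21 without their version, which gave symbols and positions.

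Expected counts were rounded, filtered with filterByExpr of edgeR (99.94% to 99.95% of counts kept), scaled by TMM and fitted over 4 groups with the quasi-likelihood test of edgeR 4.0.16 in R 4.3.3 (8 residual degrees of freedom), tested beforehand on simulated data. DESeq2 1.42.0 and limma 3.58.1 on log2(TPM + 1) were alternatives, with other scalings, filters and left-out libraries. The depth of 24664724 to 34837847 expected counts per library sets the counting error. For each list and comparison it describes, the text names genes past the test by over 2-fold, or otherwise the 3 with the greatest change. Other genes named for a small count were chosen after their values were seen. Members and lists were chosen with earlier results of these data known.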

Additional observations from a re-analysis of the deposited data

Results flagged for a closer look

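For 4 genes the size of the LPS change depended on JSH-23, tested as the interaction term in edgeR with p adjusted over 14357 genes. For Slc30a1, the zinc exporter, the difference of log2 changes was 0.689 (adjusted p 2.65e-05), with a fall in both states that was smaller with JSH-23. For Slc39a14, the importer, it was -0.7935 (adjusted p 2.44e-07), with a rise in both states that was smaller with JSH-23. For Mt2 it was -0.2692 (adjusted p 0.0127) and for Mt1 -0.242 (adjusted p 0.0327). Of 12 fits that left out 1 library, the Mt1 value passed in 3 and the Mt2 value in 12. The values of the metallothioneins did not pass on the TPM scale, where Mt2 had -0.12 (adjusted p 0.188) and Mt1 -0.10 (adjusted p 0.33 in limma). The interaction median of all genes was 0.1068 on that scale and 0.026 with TMM. Relative to the median, Mt2 had -0.231 on the TPM scale and -0.2952 with TMM, and Mt1 had -0.2104 and -0.268.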

How the results depend on the processing

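Of 540 values of the 5 genes under other settings, 504 kept their direction and side of the threshold, 17 changed sign, 17 lost the call and 2 gained one. On the log2(TPM + 1) and log2(TPM + 0.1) scales in limma, the Mt1 change with LPS was -0.1544 and -0.1547 without JSH-23, and -0.258 and -0.2584 with it. On these scales 2 genes in place of 4 passed for the interaction (both scales, Slc30a1 and Slc39a14), and Slc39a14 under LPS had a JSH-23 change of 0.073 and 0.0738, which did not pass. The TPM scales moved the median of all genes with LPS and without JSH-23 to -0.26 and -0.349, upper quartile scaling moved it to -0.129, and it was -0.0472 with TMM. With LPS and JSH-23 the median was -0.163 and -0.208 on the TPM scales and -0.0182 with TMM. The share of calls that were higher moved from 47.2% to 19.7% for LPS without JSH-23 and from 53.1% to 79.5% for the interaction on the TPM scale, and the latter was 41.0% in DESeq2 and 43.8% with DESeq2 size factors. Mt1 and Mt2 counted together, which includes the rise of Mt2, had 0.2245 with LPS in cells pre-treated with JSH-23. Mtf1 had 0.0089 for JSH-23 under LPS with upper quartile scaling, and -0.0099 for the interaction both in DESeq2 and with its size factors in edgeR. None of these Mtf1 values passed. The cause of these changes was not tested.

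With each library left out in turn, 1 to 3 genes passed for JSH-23 under LPS. The fewest were left without WTL replicate 6 or WTL + JSH23 replicate 3. The Mt1 change with LPS and JSH-23 ran from -0.1057 to 0.0258, the Mtf1 change with JSH-23 from -0.0321 to 0.0143 under LPS and from -0.0543 to 0.0344 without it, the Mtf1 interaction from -0.0397 to 0.0492 and the Slc39a14 change with JSH-23 under LPS from -0.0674 to 0.029. None of these passed. The 3 fits in which the Mt1 interaction passed were those without WT + JSH23 replicate 2, WTL replicate 6 or WTL + JSH23 replicate 3. For the Slc39 importers 4 calls of the interaction became 1 or 2 in DESeq2, with DESeq2 size factors, on the log2(TPM + 0.1) scale and in 9 of 12 fits with a library left out. The alternatives for the ratios were chosen after seeing the data. The log2 ratio of Mt1 to Mt2 differed with LPS by between -0.5871 and -0.5592 with a library left out and by -0.5687 as a ratio of TPM, and with JSH-23 by between -0.0154 and 0.0078 and by -0.011. The log2 ratio of Slc39a14 to Slc30a1 differed with LPS by between 3.868 and 3.9815 with a library left out.

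With the replicate block, the number of genes past the threshold stayed at 5, 4 and 4 for LPS without JSH-23, LPS with it and the interaction, where the adjusted p was 0.0111 for Mt1 and 0.00586 for Mt2. Deviations from the group means correlated by 0.0142 to 0.0614 between libraries of the same number and by -0.0564 to 0.0355 between different numbers. Each WT library correlated best with the WTL library of its number, while WT + JSH23 replicate 1 correlated better with WTL + JSH23 replicate 2 (0.0355). Over all genes the block raised the calls from 9437 to 9539, 7828 to 7960 and 2582 to 2968 in these comparisons. The correlations were small and the study's methods name no pairs, so the main fit has no block, and whether the numbers mark pairs is not settled. The JSH-23 comparisons share no replicate number.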

Other observations

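Of 8 oxidant-responsive genes described as Nrf2 targets, all 8 were higher with JSH-23 both under LPS and without it, with medians of 1.39 and 1.02 on the log2 scale against 0.02 and -0.01 over all genes, and all 8 were higher on the TPM scale as well. Over all genes, 24.5% were called higher under LPS and 18.8% without it. Under LPS, Gclc (1.96, adjusted p 1.62e-13) and Gclm (1.38, adjusted p 5.46e-16), the subunits of the enzyme that starts glutathione synthesis, rose over 2-fold. So did Hmox1 (1.84, adjusted p 7.94e-15), which encodes heme oxygenase 1, Srxn1 (1.62, adjusted p 3.04e-15), which encodes sulfiredoxin, and Osgin1 (1.41, adjusted p 1.51e-11). Without LPS, Gclc (1.77), Hmox1 (1.75), Srxn1 (1.65) and Gclm (1.25) rose over 2-fold. LPS without JSH-23 raised 3 and lowered 3 of the 8, where 31.0% of all genes were called higher and 34.7% lower. Slc7a11 (1.31), the cystine transporter, and Txnrd1 (1.09), thioredoxin reductase 1, rose over 2-fold. Mt1 and Mt2, whose genes are also known to respond to oxidants, rose by 0.41 and 0.42 with JSH-23 without LPS. Under LPS they rose by 0.17 and 0.15, with overlapping libraries, and each passed in 10 of 12 fits that left out 1 library. A link between these rises and those of the 8 genes was not tested.

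Of 10 genes of copper handling, 9 were tested and none changed over 2-fold. LPS without JSH-23 raised 5 and lowered 0, where 31.0% of all genes were called higher and 34.7% lower. The median of the 9 was 0.16 against -0.05 over all genes. On the TPM scale 2 were higher and 5 lower, where 1911 of all 14357 genes were called higher and 7802 lower. The greatest changes were those of Cox17 (0.76, adjusted p 3.46e-12), a copper chaperone of mitochondria, Sco1 (0.58) and the importer Slc31a1 (0.42). JSH-23 lowered 5 and raised 2 of the 9 under LPS (1 lower and 2 higher on the TPM scale), where 24.2% of all genes were called lower and 24.5% higher. Sco1 had -0.87 (adjusted p 2.31e-10), Sod1 0.29 (adjusted p 0.000167) and Slc31a1 -0.25 (adjusted p 0.00038).

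Of 8 glucocorticoid-responsive genes, 7 were tested, since glucocorticoids are known to raise metallothioneins. LPS without JSH-23 raised 3 and lowered 3, where 31.0% of all genes were called higher and 34.7% lower. Tsc22d3 (-1.42, adjusted p 7.07e-13), which encodes GILZ, and Per1 (-1.34, adjusted p 2.42e-09) were lower and Dusp1 (1.05, adjusted p 1.25e-13) higher. With JSH-23, LPS changed Tsc22d3 by -1.93 and Ddit4 by 1.65. JSH-23 raised 5 and lowered 2 under LPS and raised 4 and lowered 0 without it, none over 2-fold. Of all genes, 24.5% were called higher and 24.2% lower under LPS, and 18.8% and 22.1% without it. The greatest changes were those of Per1 (0.83), Sgk1 (0.63) and Ddit4 (0.62) under LPS, and of Dusp1 (0.78), Klf9 (0.78) and Per1 (0.43) without it, each past the test. The list did not move in 1 direction with LPS.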
